A study of Rattus norvegicus with 23 samples.

Results

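The lung endothelial markers are 10 genes that mark the cells lining blood vessels: Gpihbp1, Plvap, Sox18, Cdh5, Pecam1, Kdr, Tek, Vwf, Car4 and Cldn5. They were chosen by name as genes known from endothelium, with earlier results of these data known. Of the 10, 9 were found among the 19249 genes of the table. Car4 is listed there under its other symbol Ca4, and Pecam1 was not analysed here. All 9 passed the filter on low values, a mean of at least 10 over all libraries, which left 14414 genes for testing.

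Endothelium forms the inner wall of every vessel, and in the lung it makes up the dense capillary net that lies against the air sacs. Its cells hold together through adherens junctions built on the cadherin Cdh5 and tight junctions built on the claudin Cldn5. They read growth signals through the vascular endothelial growth factor (VEGF) receptor Kdr and the angiopoietin receptor Tek. Capillary endothelium also carries surface proteins that handle fat and carbon dioxide, Gpihbp1 and Ca4, while Vwf is stored in and released from the endothelium of larger vessels.

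RNA was sequenced from frozen lung pieces of about 35 mg taken from male rats, each library from a separate rat. The 24 rats were randomized to filtered air, low smoke or high smoke from eucalyptus wood, with target carbon monoxide concentrations of 10 ppm for low smoke and 20 ppm for high smoke. Whole-body exposure ran for 4 days in week 1, then a break of 3 days, then 3 days in week 2. Libraries of 7 air, 8 low smoke and 7 high smoke rats were analysed. The labels also state that an air sample was dropped for quality. Strain and age are not given in the sources used here, and 1 further high smoke sample, marked in the labels as removed for quality, was not analysed here.

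The libraries held 8484131 to 12055527 read equivalents each. High smoke replicates 1, 3 and 7 stood apart, with scores of 105 to 146.6 on the first principal component (22.4% of the variance), against -60.1 to 27.7 in the other 19 libraries. Results that rest on them are given with and without them. Lung pieces hold many cell types, so fewer endothelial cells and less RNA per endothelial cell cannot be told apart in any value below.

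Promoter sequences were found in the RefSeq table (build GRCr8) for 4 of the 10 markers: Car4, Cldn5, Kdr and Plvap. Those of Cldn5, Kdr and Plvap are shown as those of a marker that rose in high smoke, a receptor that was level, and a capillary marker whose difference did not pass. Each runs 5′ to 3′ from 250 bases before to 50 bases after the annotated start, and capitals mark matches to the ETS motifs CCGGAA or AGGAAG on either strand. ETS factors are transcription factors known for driving endothelial genes. Cldn5 lies at chr11:95718549-95718848 on the minus strand, Kdr at chr14:32571813-32572112 on the plus strand and Plvap at chr16:18231230-18231529 on the minus strand.
Cldn5: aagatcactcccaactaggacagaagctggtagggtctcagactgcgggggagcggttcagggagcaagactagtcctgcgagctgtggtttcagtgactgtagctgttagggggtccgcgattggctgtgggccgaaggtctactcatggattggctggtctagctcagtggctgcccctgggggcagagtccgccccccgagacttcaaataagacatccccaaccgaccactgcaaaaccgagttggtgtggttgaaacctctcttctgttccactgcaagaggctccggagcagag
Kdr: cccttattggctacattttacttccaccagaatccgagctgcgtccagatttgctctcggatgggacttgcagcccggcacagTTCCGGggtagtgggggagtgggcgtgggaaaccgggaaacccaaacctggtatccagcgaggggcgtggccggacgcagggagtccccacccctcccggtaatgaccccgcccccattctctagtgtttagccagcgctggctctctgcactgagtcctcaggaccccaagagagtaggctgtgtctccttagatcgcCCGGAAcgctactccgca
Plvap: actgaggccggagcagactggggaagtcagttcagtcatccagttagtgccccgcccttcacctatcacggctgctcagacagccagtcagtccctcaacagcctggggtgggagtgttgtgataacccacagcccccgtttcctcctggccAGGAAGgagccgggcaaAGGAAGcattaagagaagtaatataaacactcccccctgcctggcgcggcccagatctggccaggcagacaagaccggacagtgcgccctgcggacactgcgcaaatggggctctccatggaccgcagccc

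The Kdr promoter held CCGGAA at position 33 on its own strand and at -167 on the opposite strand, counted from the start. The Plvap promoter held AGGAAG at -98 and -81, and neither motif was found in the windows of Cldn5 and Car4. Of 33469 rat promoters of the same length, 14.95% held CCGGAA and 34.51% held AGGAAG. The KLF motif CCACCC, in 29.43% of all promoters, matched Kdr at -80 and Plvap at -144. The SOX motif ACAAT (33.67% of promoters) and the GATA motif AGATAA (11.58%) matched none of the 4. These are letter matches on both strands, not sites shown to be bound, and the CCGGAA and AGGAAG motifs share the letters GGAA.

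The endothelial markers did not move as one block. In high smoke against air, the transcription factor Sox18 and the tight junction claudin Cldn5 rose, the angiopoietin receptor Tek fell, and the other 6 did not pass the test. In low smoke against air none of the 9 passed, and in high smoke against low smoke only Cldn5 did. Values are normalized counts, that is reads divided by a factor for library size, and differences are of mean log2(value + 1). A gene is said to have risen or fallen where limma's p, adjusted by Benjamini-Hochberg over all 14414 genes, lay below 0.05.

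**Figure D1:**
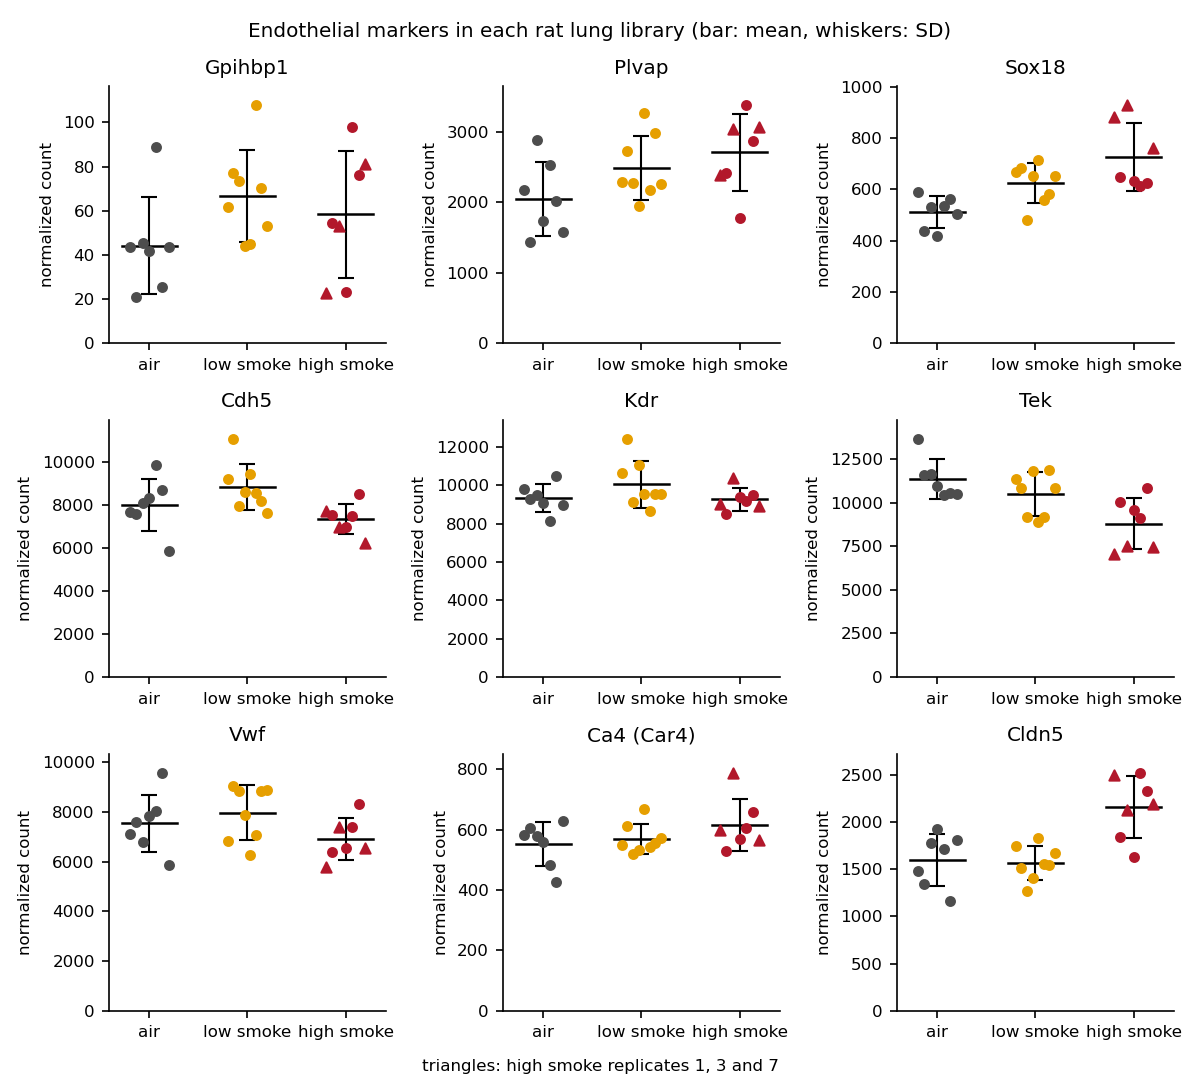
Normalized counts (vertical axis, from 0) of the 9 endothelial markers in each air, low smoke and high smoke library; bars are means, whiskers are SD, and triangles are high smoke replicates 1, 3 and 7. Sox18 lies at 611 or above in every high smoke library against 591 or below in every air library, and Tek lies at 7055 to 7524 in the 3 triangles.

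Of the capillary surface proteins, Gpihbp1 (chr7:116632506-116634294 in build rn6) anchors lipoprotein lipase to the capillary wall. Its values had a lowest, median and highest of 21.1, 43.7 and 88.7 in air (n = 7), 44.1, 65.9 and 107.9 in low smoke (n = 8) and 22.9, 54.4 and 97.8 in high smoke (n = 7). All 8 low smoke libraries lay above the air median, but the groups overlapped. The low smoke mean of 66.6 ± 20.9 (SD) against 44.2 ± 21.9 in air gave a difference of 0.65 (SE 0.30, limma adjusted p = 0.769). High smoke, at 58.4 ± 28.7, differed from air by 0.34 (SE 0.31, adjusted p = 0.488). With 19 to 123 read equivalents per library it was the marker with the fewest reads.

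Plvap (chr16:19906318-19918690, rn6) forms the diaphragms that bridge the small openings of capillary and venous endothelium. It had a lowest, median and highest of 1442, 2013 and 2882 in air, 1942, 2282 and 3261 in low smoke, and 1771, 2872 and 3381 in high smoke. The median was lowest in air and highest in high smoke, with wide overlap, and 3 of 7 high smoke libraries lay above every air library. High smoke differed from air by 0.41 (SE 0.15), with an adjusted p = 0.0614 that did not pass. It passed without air replicate 3 (0.50, adjusted p = 0.019), without air replicate 5 (0.47, 0.0408) or without high smoke replicate 4 (0.51, 0.0144), the library with the lowest high smoke value. Plvap did not pass by the exact rank-sum test (adjusted p = 0.202) or with libraries scaled to the same total (0.34, limma adjusted p = 0.132). Without high smoke replicates 1, 3 and 7 the difference was 0.35 (limma adjusted p = 0.398). Low smoke differed from air by 0.30 (SE 0.15, adjusted p = 0.771), and high smoke from low smoke by 0.11 (SE 0.15, adjusted p = 0.672).

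Ca4 (Car4, chr10:72272248-72281068, rn6) is a carbonic anhydrase on the capillary surface that speeds the exchange of carbon dioxide and bicarbonate. Its values varied least between groups among the capillary proteins. The lowest, median and highest were 428, 580.1 and 629.7 in air, 519, 552 and 669 in low smoke, and 528, 597 and 788 in high smoke. The difference of high smoke from air was 0.16 (SE 0.09, adjusted p = 0.246), and that of low smoke from air 0.05 (SE 0.09, adjusted p = 0.956).

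Sox18 (chr3:177177310-177179128, rn6) encodes a transcription factor of developing and growing vessels. It had a lowest, median and highest of 416, 529 and 591 in air, 480.0, 653 and 713 in low smoke, and 611, 649 and 928 in high smoke. Air and high smoke did not overlap: all 7 high smoke libraries lay above every air library, which held in either direction for 1.87% of all genes tested. The mean rose 1.41-fold, from 511 ± 63.3 to 727 ± 133 (SD, n = 7 each), a difference of 0.50 (SE 0.11, adjusted p = 0.00334).

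By its mean of 623 ± 77.3 (SD, n = 8) low smoke took the middle place for Sox18, but its median of 653 lay above the 649 of high smoke. In low smoke 5 of 8 libraries lay above every air library. That difference of 0.29 (SE 0.10) had an unadjusted p = 0.0104 and an adjusted p = 0.702, and the step from low to high smoke of 0.21 (SE 0.10) had an adjusted p = 0.197, so neither neighbour in the order air, low smoke, high smoke differed from the next past the threshold. High smoke replicates 1, 3 and 7 had 762 to 928, above the 611 to 649 of the other 4. Without those 3 the difference of high smoke from air was 0.31 with an adjusted p = 0.158. The difference of high from low smoke was then 0.02 (limma adjusted p = 0.98).

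At the junctions, Cldn5 (chr11:86356294-86357719, rn6), the main claudin of endothelial tight junctions, was higher in high smoke than in both other groups. It had a lowest, median and highest of 1162, 1710.4 and 1922 in air, 1271, 1548 and 1834 in low smoke, and 1627, 2189.6 and 2524 in high smoke. Air and low smoke overlapped widely, while 5 of 7 high smoke libraries lay above every air library and 6 of 7 above every low smoke library. Cldn5 rose 1.36-fold against air (0.44, SE 0.11, adjusted p = 0.00985) and 1.37-fold against low smoke (0.46, SE 0.11, adjusted p = 0.0219). Low smoke differed from air by -0.02 (SE 0.11, adjusted p = 0.988).

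High smoke replicates 1, 3 and 7 did not stand alone for Cldn5, with 2127 to 2495 against 1627 to 2524 in the other 4. Without them the differences were of similar size, 0.38 against air and 0.40 against low smoke, with adjusted p = 0.188 and 0.64. The call against low smoke was also lost when high smoke replicate 1 (adjusted p = 0.0642), 3 (0.0545) or 7 (0.0597) alone was left out.

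Cdh5 (chr19:1023683-1074366, rn6), the cadherin that joins endothelial cells at adherens junctions, was lower in high smoke than in low smoke without passing the test. Its lowest, median and highest values were 5869, 8081 and 9839 in air, 7642, 8583 and 11067 in low smoke, and 6240.4, 7475 and 8491 in high smoke. All 7 high smoke libraries lay below the low smoke median and 5 of 7 below every low smoke library. High smoke differed from low smoke by -0.26 (SE 0.09, adjusted p = 0.0791), a difference that passed without air replicate 7 (-0.26, 0.0458) or without high smoke replicate 6 (-0.30, 0.0438). Against air the differences were -0.12 (SE 0.09, adjusted p = 0.436) for high smoke and 0.15 (SE 0.09, adjusted p = 0.821) for low smoke.

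Of the receptors, Tek (chr5:113725717-113852800, rn6), which binds the angiopoietins and keeps vessels quiescent, was the marker that fell. It had a lowest, median and highest of 10462, 10945.5 and 13680.2 in air, 8933, 10851 and 11912 in low smoke, and 7055, 9122 and 10863 in high smoke. Of the 7 high smoke libraries, 6 lay below every air library. The mean went from 11349 ± 1147 in air to 8809.9 ± 1474 in high smoke (SD, n = 7 each) and fell by 0.38 on the log2 scale (SE 0.10, adjusted p = 0.0118). Low smoke differed from air by -0.11 (SE 0.10, adjusted p = 0.882).

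High smoke differed from low smoke by -0.26 for Tek (SE 0.10, adjusted p = 0.0857), which passed only without high smoke replicate 6 (-0.32, 0.0336). High smoke replicates 1, 3 and 7 held 7055 to 7524 and the other 4 high smoke libraries 9122 to 10863, with no overlap. Without those 3 the difference of high smoke from air was -0.19 with an adjusted p = 0.375.

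Kdr (chr14:34727623-34787184, rn6), the main receptor through which VEGF acts on endothelium, was level between high smoke and air. Its lowest, median and highest values were 8141, 9289 and 10502 in air, 8663, 9532 and 12415 in low smoke, and 8491, 9156 and 10380.2 in high smoke. High smoke differed from air by -0.01 (SE 0.07, adjusted p = 0.961), and the other differences were 0.11 (SE 0.07, adjusted p = 0.836) for low smoke against air and -0.11 (SE 0.07, adjusted p = 0.338) for high against low smoke.

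Vwf (chr4:158088505-158219524, rn6) encodes the clotting protein that endothelium stores and that tethers platelets to injured vessel walls. It had a lowest, median and highest of 5843, 7575 and 9571 in air, 6263, 8353 and 9047 in low smoke, and 5790.1, 6556 and 8303 in high smoke. All 7 high smoke libraries lay below the low smoke median, a difference of -0.20 (SE 0.10, adjusted p = 0.21). High smoke differed from air by -0.12 (SE 0.10, adjusted p = 0.462) and low smoke from air by 0.08 (SE 0.10, adjusted p = 0.927).

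Counted over the 9 markers, high smoke against air gave 2 that rose and 1 that fell. Over all genes tested, 16.3% were called in this comparison, 9.21% up and 7.05% down, and the markers' 3 of 9 was not tested against that share. By the exact rank-sum test only Sox18 passed (adjusted p = 0.0311), with Tek at 0.0566 and Cldn5 at 0.0889. The median difference was 0.16 for the markers and -0.002 for all genes, with 5 markers above zero and 4 below. With every library scaled to the same total, the same 3 markers were called, while the split of all called genes went from 1327 up and 1016 down to 894 up and 1797 down.

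Low smoke against air gave 0 of 9 markers called, as for all genes (0%), and 0.0416% of all genes did not overlap between these groups, none of them a marker. By limma's unadjusted p below 0.05, 3 of 9 markers (Gpihbp1, Plvap and Sox18) and 923 genes (6.403%) would pass, and the exact rank-sum test also called 0 markers, with 2 at an unadjusted p below 0.05. Of the 9 differences 7 lay above zero, with a median of 0.11, against 51.08% of all genes above zero and a median of 0.003.

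High smoke against low smoke gave 1 of 9 markers called, with 6.78% of all genes called, 3.8% up and 2.98% down, and 0.694% not overlapping. The markers' median was -0.11 against 0.001 for all genes. The 2 comparisons of high smoke share its 7 libraries, and those against air share the air libraries, so they are not independent of each other. Without high smoke replicates 1, 3 and 7 none of the 9 markers passed in any of the 3 comparisons, and over all genes 124 passed between high smoke and air, 0 between high and low smoke and 1 between low smoke and air.

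**Figure D2:**
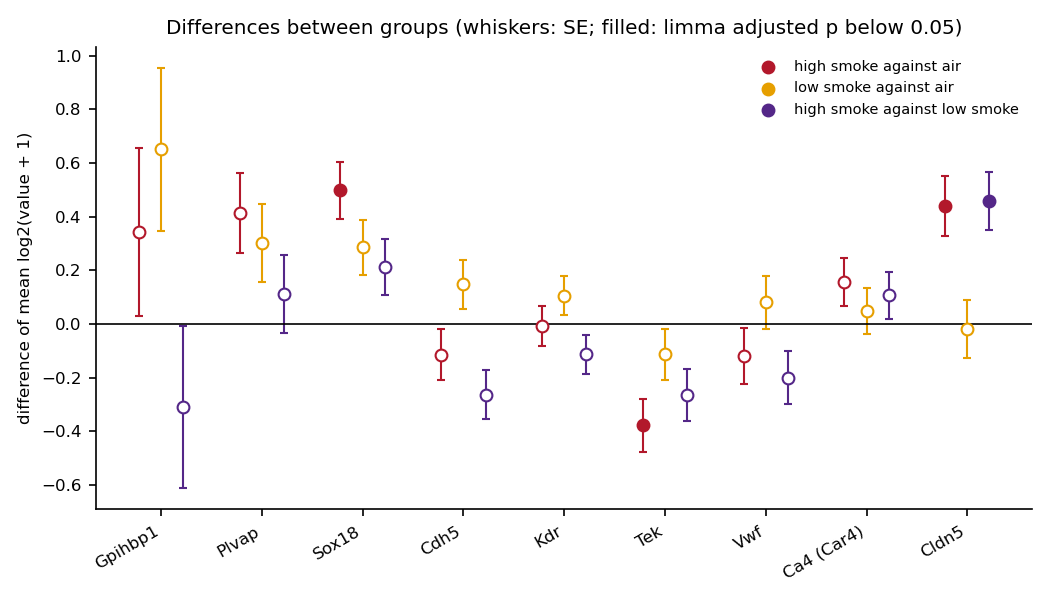
Difference of mean log2(value + 1) (vertical axis) for each of the 9 endothelial markers in the 3 comparisons; whiskers are SE, and filled points passed limma's adjusted p of 0.05. Sox18 (0.50), Cldn5 (0.44) and Tek (-0.38) are filled for high smoke against air, and only Cldn5 (0.46) for high against low smoke.

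The markers were next set against Cdh5 in the same library, since a ratio inside a library does not depend on how the library was scaled and Cdh5 marks endothelium of every vessel. The 8 other markers in 3 comparisons gave 24 exact two-sided permutation tests, adjusted by Benjamini-Hochberg over the 24. Of these, 2 passed for high smoke against air, 3 for high against low smoke and 0 for low smoke against air. All 8 ratios share the denominator, so they are not independent, and Cdh5 itself was at 7342 ± 705 in high smoke, 8829 ± 1086 in low smoke and 8003 ± 1213 in air (SD). A ratio also rises where Cdh5 is lower, and Cdh5 differed between high and low smoke by -0.26 (SE 0.09, limma adjusted p = 0.0791).

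The ratio of Cldn5 to Cdh5 separated high smoke from low smoke fully. How often the ratios of other genes to Cdh5 do so was not counted, here or for the ratios below. It ranged from 0.233 to 0.351 in high smoke, from 0.137 to 0.219 in low smoke and from 0.134 to 0.308 in air. The log2 ratio was higher in high smoke than in low smoke by 0.72 (SE 0.11, exact permutation, adjusted p = 0.00746), with all 7 libraries above every low smoke library. Against air the difference was 0.55 (SE 0.17, exact permutation, adjusted p = 0.0364), a call lost when any 1 of 9 libraries was left out (air replicates 1, 2, 4, 5 or 6, or high smoke replicates 1, 3, 5 or 7, with adjusted p from 0.0503 to 0.0727).

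The ratio of Sox18 to Cdh5 ranged from 0.0734 to 0.133 in high smoke, 0.0604 to 0.0854 in low smoke and 0.0501 to 0.0859 in air. It was higher in high smoke than in air by 0.61 (SE 0.16) and than in low smoke by 0.48 (SE 0.14), both with an exact permutation adjusted p = 0.021. In each of these comparisons 5 of 7 high smoke libraries lay above every library of the other group.

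The ratio of Ca4 to Cdh5 was 0.0702 to 0.113 in high smoke and 0.0553 to 0.0747 in low smoke. This difference of 0.37 (SE 0.10, exact permutation, adjusted p = 0.0112) placed 6 of 7 high smoke libraries above every low smoke library. The level of Ca4 itself differed by 0.11 (SE 0.09, limma adjusted p = 0.46) and did not pass. The ratio in high smoke differed from air by 0.27 (SE 0.17, exact permutation, adjusted p = 0.281).

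The ratio of Tek to Cdh5 did not pass in any comparison. The ratio was 1.2 ± 0.159 in high smoke, 1.21 ± 0.199 in low smoke and 1.45 ± 0.277 in air (SD), with differences of -0.26 for high smoke against air (SE 0.13, exact permutation, adjusted p = 0.186) and -0.26 for low smoke against air (SE 0.14, exact permutation, adjusted p = 0.186). Plvap to Cdh5 was higher in high smoke than in air by 0.53 (SE 0.17) without passing (exact permutation, adjusted p = 0.0536). Ratios of Kdr, Vwf and Gpihbp1 to Cdh5 had exact permutation adjusted p from 0.186 to 0.988.

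With Kdr in place of Cdh5 as the denominator, Cldn5 in high against low smoke and Sox18 in high smoke against air still passed. Sox18 (0.32, adjusted p = 0.0522) and Ca4 (0.22, 0.0618) in high against low smoke and Cldn5 in high smoke against air (0.45, 0.0618) no longer did, by the same exact permutation test. Without high smoke replicates 1, 3 and 7 these ratios were still above zero and did not pass, at 0.60 for Cldn5 against low smoke (exact permutation, adjusted p = 0.097), 0.44 for Cldn5 against air (0.282) and 0.26 for Ca4 against low smoke (0.145). Sox18 to Cdh5 was then 0.37 against air and 0.23 against low smoke (exact permutation, adjusted p = 0.267 for both). With 4 high smoke libraries left, there are only 330 arrangements of libraries against air and 495 against low smoke. By the two-sided test a single leading test of the 24 could then not pass after adjustment in either comparison. The 0.097 of Cldn5 against low smoke is the lowest such a test could reach there, so these p-values say little about stability.

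**Figure D3:**
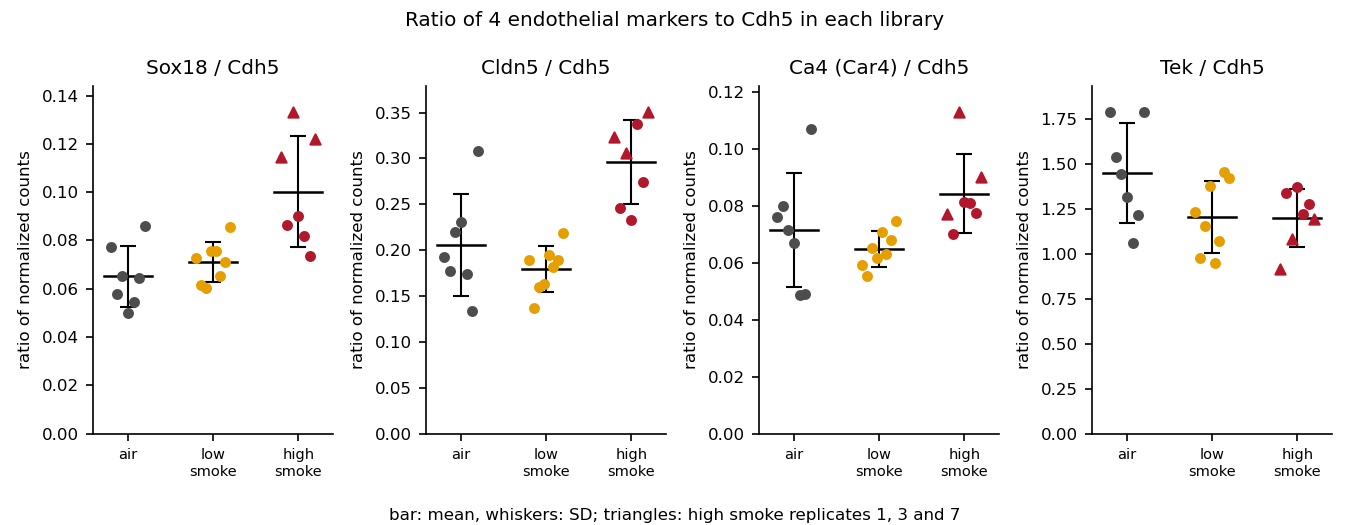
Ratio of normalized counts of Sox18, Cldn5, Ca4 (Car4) and Tek to Cdh5 (vertical axes, from 0) in each library; bars are means, whiskers are SD, and triangles are high smoke replicates 1, 3 and 7. Every high smoke library lies above every low smoke library for Cldn5 (lowest 0.233 against highest 0.219), while Tek overlaps in all groups.

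The markers differ widely in gene span, the length from start to end of the gene in rn6, and their differences in high smoke followed it. Cldn5 (1.43 kb), Gpihbp1 (1.79 kb) and Sox18 (1.82 kb) are short genes, Ca4 (8.82 kb) and Plvap (12.37 kb) lie in the middle, and Cdh5 (50.68 kb), Kdr (59.56 kb), Tek (127.08 kb) and Vwf (131.02 kb) are long. The 5 markers with the shortest spans were those above zero in high smoke against air, and the 4 longest were those below zero. Across the 9 genes, which are not independent replicates, Spearman's rho between difference and span was -0.85 for high smoke against air, -0.43 for high against low smoke and -0.28 for low smoke against air.

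Over all genes tested rho was -0.19 for high smoke against air and -0.24 for high against low smoke, of the same sign and weaker than in the markers. For low smoke against air it was 0.04, of the opposite sign. In high smoke against air the median difference of all genes was 0.09 for the 1055 genes under 2 kb and -0.06 for the 1743 genes over 100 kb. After the trend along span was removed from each library, Sox18 (0.42, limma adjusted p = 0.00837), Cldn5 (0.36, 0.0192) and Tek (-0.31, 0.0267) still passed against air, and so did Cldn5 against low smoke (0.38, 0.0349). The ratios to Cdh5, a gene of 50.68 kb, were not run with the trend removed.

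**Figure D4:**
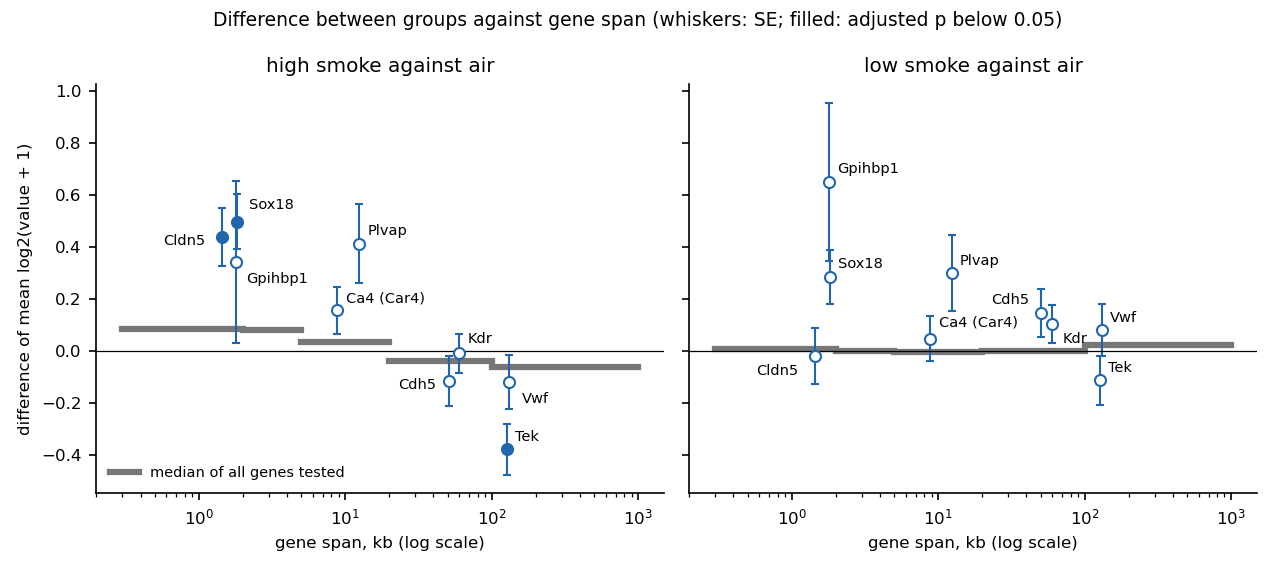
Difference of mean log2(value + 1) of each endothelial marker (points; whiskers are SE; filled points passed limma's adjusted p of 0.05) against gene span in kb on a log axis, on the left for high smoke and on the right for low smoke, each against air; grey bars are medians of all genes tested in 5 classes of span. In high smoke the short genes Sox18 and Cldn5 lie high and the long gene Tek lies low, and the grey bars step from 0.09 down to -0.06.

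Inside the groups the markers varied only loosely together. After group means were removed, 24 of the 36 pairs had a Pearson r above 0 over the 22 libraries, with a median of 0.142 and a range from -0.372 to 0.557. None of the 36 passed the permutation test after adjustment, by Pearson or by Spearman, and 4 had an unadjusted Pearson p below 0.05. Without high smoke replicates 1, 3 and 7 (19 libraries) 24 pairs were again above 0 and the median was 0.109.

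Gpihbp1 and Plvap had the highest r, 0.56 (permutation p = 0.00755, adjusted p = 0.272), with a Spearman's rho of 0.52 (permutation p = 0.014, adjusted p = 0.504) and an r of 0.45 without the 2 libraries farthest from the median of Gpihbp1. Vwf and Cldn5 had the lowest, -0.37 (permutation p = 0.0887, adjusted p = 0.507), with rho of -0.34 (permutation p = 0.121, adjusted p = 0.613), and -0.15 without the 2 farthest libraries, so that relation rests on those libraries. Sox18 and Tek, the markers that rose and fell, had an r of -0.27 (permutation p = 0.217, adjusted p = 0.519) and a rho of -0.29 (permutation p = 0.191, adjusted p = 0.613). Without high smoke replicates 1, 3 and 7 that r was 0.30.

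**Figure D5:**
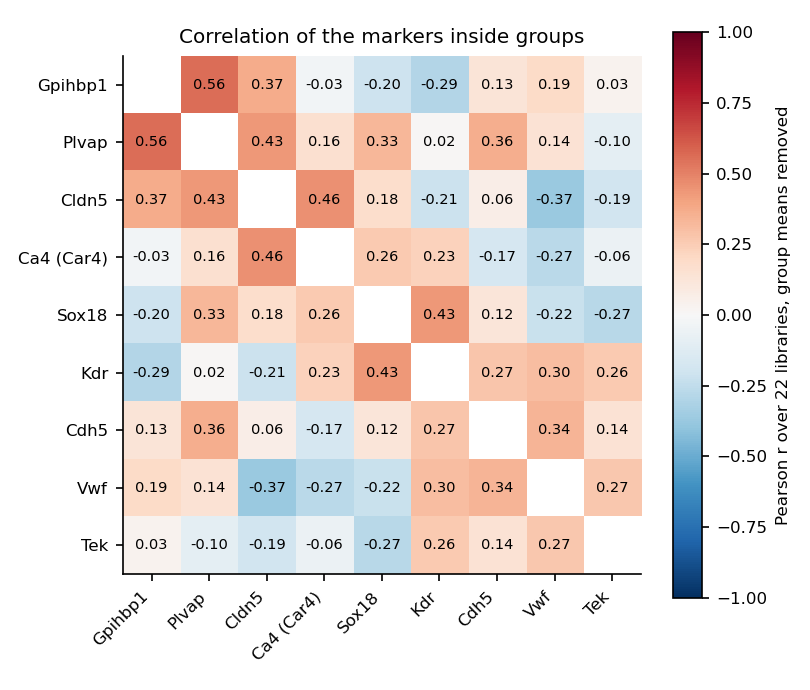
Pearson r of log2(value + 1) for each pair of endothelial markers over 22 libraries, group means removed; color runs from blue (-1) to red (1) and each cell prints r. The highest value is 0.56 for Gpihbp1 with Plvap and the lowest -0.37 for Vwf with Cldn5.

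Genes most like the markers were sought among 10392 others by Pearson r over the same 22 libraries. Most like the mean of the 9 markers were Plat, which encodes tissue plasminogen activator (r = 0.85), Notch4, a Notch receptor of endothelium (0.84), Gps2 (0.82), Nob1 (0.80) and Eef2, a factor of protein synthesis (0.79). For single markers they included Mfng for Plvap (0.91), Stat6 for Cdh5 (0.91), Map2k4 for Tek (0.83), Ifit1bl for Sox18 (0.80), Fibin for Cldn5 (0.80), Cebpg for Ca4 (0.79), Mib2 for Gpihbp1 (0.78) and Dchs1 for Vwf (0.77). These are the highest of many r values over libraries that share preparation, and they carry no test. The mean of the 9 markers was taken over unscaled log2 values, so markers with a wide spread weigh more in it. Gpihbp1, the marker with the fewest reads, had a coefficient of variation inside groups of 31.4% to 49.5%.

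Other endothelial genes were read from 10 lists around the markers, each given by how many passed in either direction. Over all genes tested these shares were 9.21% up and 7.05% down for high smoke against air, and 3.8% up and 2.98% down for high against low smoke, and no list was tested against them. Of 24 other pan-endothelial genes tested, 0 rose and 1 fell in high smoke against air, Fli1, an ETS factor (-0.47, SE 0.16, adjusted p = 0.0399), with a list median of 0.04. In high against low smoke 0 of the 24 passed. Their summed normalized counts ran from 92016 to 108780 in air and from 89826 to 118850 in high smoke, with Calcrl alone averaging 40050 and 41530.

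Of 13 aerocyte and general capillary genes, 2 rose in high smoke against air, with a list median of 0.13. Aplnr, the apelin receptor of general capillary cells, rose 1.27-fold (0.35, SE 0.08, adjusted p = 0.00644) and Tmem100 1.37-fold (0.46, SE 0.13, adjusted p = 0.0209). Against low smoke Fabp4, a fatty acid carrier, rose 2.02-fold (1.02, SE 0.31, adjusted p = 0.0499) from only 34.2 ± 19.4 normalized counts, and Kit fell by 0.23 (SE 0.07, adjusted p = 0.0433). Of 15 genes of large vessel endothelium 2 rose against air. These were Nr2f2, the venous transcription factor (1.64-fold, 0.71, SE 0.15, adjusted p = 0.00318), and Jag1, a Notch ligand (1.16-fold, adjusted p = 0.0437). Nr2f2 also rose 1.41-fold against low smoke (adjusted p = 0.0434). Of 7 lymphatic genes 0 passed in any comparison, with a median of 0.06 for high smoke against air.

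Of the receptors' own ligands and partners none passed beside Tek. Of 14 ligands, receptors and partners of the VEGF and angiopoietin pathway 0 passed in any comparison, with medians of -0.01 for high smoke against air and -0.06 against low smoke. Named after their values were seen, the Tek ligand Angpt1 differed between high smoke and air by 0.27 (SE 0.12, adjusted p = 0.136) and the Tek-related receptor Tie1 by 0.11 (SE 0.07, adjusted p = 0.329). The other VEGF receptor Flt1 differed by -0.18 (SE 0.09, adjusted p = 0.153) and the ligand Vegfa by -0.11 (SE 0.08, adjusted p = 0.36).

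Among 16 partners of the junction proteins, 4 fell and 0 rose in high smoke against air, and 3 fell and 0 rose against low smoke, beside 7.05% and 2.98% of all genes that fell in these comparisons. Afdn, the scaffold afadin, fell by 0.52 against air (SE 0.11, adjusted p = 0.00362) and by 0.53 against low smoke (SE 0.11, adjusted p = 0.0167). The catenins Ctnna1 (-0.33, adjusted p = 0.0139) and Ctnnd1 (-0.28, adjusted p = 0.0158), which tie cadherins to the cell skeleton, and Tjp1 (-0.21, adjusted p = 0.0203), which tethers claudins, also fell against air. Against low smoke Ctnnd1 (-0.31, adjusted p = 0.0248) and Tjp1 (-0.20, adjusted p = 0.0454) fell. These genes are made by epithelium as well as endothelium, and the list median was -0.01 against air. With the trend along span removed, Ctnna1 and Tjp1 no longer passed against air, nor Tjp1 against low smoke.

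Around Gpihbp1, 2 of 8 genes of the lipoprotein lipase pathway rose against air: Sdc1, a heparan sulfate carrier (1.37-fold, adjusted p = 0.00673), and Lmf2, a maturation factor for lipases (1.31-fold, adjusted p = 0.0138). Lmf1 rose 1.29-fold against low smoke (adjusted p = 0.0407). Lpl itself differed from air by 0.16 (SE 0.08, adjusted p = 0.159). The list median was 0.20, against -0.002 for all genes.

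Around Vwf, 1 of 10 partners rose in high smoke against air, Cd63, a protein of the granules that store Vwf (1.25-fold, adjusted p = 0.0151), and 1 fell, Stxbp5 (-0.30, adjusted p = 0.0119), a regulator of their release. The list median was -0.06. Of 8 other carbonic anhydrases tested beside Ca4, Ca11 rose 1.73-fold (adjusted p = 0.00243) and Ca8 fell by 0.52 (adjusted p = 0.00481), both relatives known for lacking enzyme activity, and the list median was 0.22. Of 17 endothelial transcription factors beside Sox18, 0 rose and 2 fell against air, Foxo1 (-0.55, adjusted p = 0.00249) and Fli1, which is also in the pan-endothelial list, with a median of 0.01. Foxo1 also fell by 0.48 against low smoke (adjusted p = 0.0185). The relatives Sox7 and Sox17, which belong to the same SOX group as Sox18, differed from air by 0.01 (SE 0.10) and 0.03 (SE 0.10).

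In low smoke against air 0 genes passed in each of these 10 lists, as in the whole table. None of the genes named from them passed without high smoke replicates 1, 3 and 7. With all libraries scaled to the same total, Jag1 and Cd63 against air and Fabp4 and Lmf1 against low smoke kept their direction and no longer passed. With the trend along span removed, Fli1 against air and Kit, Fabp4 and Nr2f2 against low smoke no longer passed.

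Markers of other lung cells were read beside the endothelial ones. Over all genes tested, 9.21% rose and 7.05% fell in high smoke against air, and 3.8% and 2.98% against low smoke. None of these lists was tested against those shares. Of 8 markers of alveolar type 1 cells, Ager, Scnn1g and Hopx rose in high smoke against air and 5 did not pass. The 8 summed to 34064 to 45077 in air and 44487 to 53658 in high smoke, with Ager alone averaging 10560 and 16820. Of 8 of alveolar type 2 cells, Napsa, Sftpc and Sftpd rose and 5 did not pass. These 8 summed to 184450 to 234230 in air and 226430 to 295570 in high smoke, with Sftpc alone averaging 65040 and 106600. Of 12 of smooth muscle and pericytes, Tagln, Acta2 and Cnn1 rose and 9 did not pass (sums 16553 to 26140 and 20046 to 29983). Of 7 of fibroblasts Mfap5, Dcn and Tcf21 rose and 4 did not pass (29364 to 38633 and 31770 to 42714). In high against low smoke Napsa, Tagln, Higd1b, Dcn, Mfap5 and the bronchial marker Tppp3 rose.

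Of 6 red cell markers, Hbb and Hba-a2 rose in high smoke against both other groups and 4 did not pass in either comparison, with sums of 4989.5 to 7408.7 in air and 7372 to 15034 in high smoke. Without high smoke replicates 1, 3 and 7 neither passed, with Hbb at 0.65 against air and 0.30 against low smoke (limma adjusted p = 0.0777 and 0.772) and Hba-a2 at 0.71 and 0.53 (limma adjusted p = 0.0785 and 0.664). In high against low smoke 3 of the 6 lay above zero and 3 below. Hba-a1, named after its values were seen, differed by -0.21 from air (SE 0.16, adjusted p = 0.4) and by -0.29 from low smoke (SE 0.15, adjusted p = 0.232), and since Hba-a1 and Hba-a2 are near-identical copies, the split of reads between them is uncertain. Of 8 leukocyte markers Cd79a rose and Cd68 fell against air (sums 4471 to 5985.9 and 4384.9 to 6221.1). Platelets also hold Vwf protein, and their markers were low in every group (sums 100.88 to 183.68 in air and 92.028 to 159.3 in high smoke), 0 of 3 tested passed, and Pf4 and Ppbp averaged 4.16 and 2.7.

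Of 4 bronchial epithelial markers 1, Tppp3, rose against air (sums 8987.2 to 13988 and 8625.4 to 14178). Cardiac muscle markers (0 of 9 passed) ran from 180.5 to 1397.9 in high smoke, 163.87 to 1573 in low smoke and 138.37 to 1673.5 in air, and adipocyte markers (0 of 1) stayed between 9.9687 and 38.52 in all libraries. The 9 endothelial markers summed to 35836 to 43688 in high smoke, 38378 to 48983 in low smoke and 35755 to 43517 in air, with overlap throughout. Without high smoke replicates 1, 3 and 7 only Napsa, against air, still passed among all these markers of other cells. Scaled to the same total, Acta2 and Cnn1 against air and Hba-a2 against low smoke no longer passed. With the span trend removed, Hopx against air and Higd1b, Hba-a2 and Hbb against low smoke no longer passed. The part of these cell types in the differences of Sox18, Cldn5 and Tek was not tested.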

How the data were processed

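Lung RNA from 22 male rats was analysed, 7 from air, 7 from high smoke and 8 from low smoke. Per the submitters' processing notes, the authors used STAR 2.7.3a, Partek, DESeq2 and the rat build rn6. The deposited unit is a signal: each gene's count over a factor for the size of its library. Of the values under 200 reads, 80.672% to 82.793% lay within 0.02 of a whole read, so whole reads were not recovered and no count model was used.

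Values were transformed to log2(value + 1), which understates changes of low genes. Genes with a mean of at least 10 (14414 of 19249) were fitted in 1 model of 3 groups with limma 3.58.1 (trend on, R 4.3.3), two-sided, with Benjamini-Hochberg adjustment over all genes tested at a threshold of 0.05. The fit was tested on simulated data. Ratios to Cdh5 had exact two-sided permutation tests, and correlations used 100000 resamples (SciPy 1.17.1). Because Pecam1 was not analysed, 24 ratio tests and 36 pairs were run, and Kdr served as the other denominator.

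The named genes were the markers, up to 4 called genes per list (6 in the pan-endothelial and capillary lists), all called genes of other cell types, and the most alike genes with a mean of at least 50. Exceptions are Lpl, Sox7, Sox17, Hba-a1 and the VEGF and angiopoietin genes, which were named after their values were seen. A gene that the rule selects is not reported here. The 20 lists besides the markers held 225 genes, of which 210 were found (10 under another symbol) and 185 tested, and 16 are in more than 1 list. The members and lists were chosen with earlier results of these data known. Alternatives were other pseudocounts, filters, scalings, weights, robust shrinkage, only the 2 groups compared, an exact rank-sum test, leaving out each library, and leaving out high smoke replicates 1, 3 and 7. Removal of the trend along gene span, the Kdr denominator and the correlations without those 3 libraries were added after the data were seen.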

Additional observations from a re-analysis of the deposited data

Results flagged for a closer look

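Of 27 sets of values, 9 markers in 3 groups each, 2 held a library far from the rest of its group, where chance gives about 1 in 20. Gpihbp1 was 88.7 in air replicate 5, against 21.1 to 45.4 in the other 6 air libraries. Tek was 13680.2 in air replicate 1, against 10462 to 11659 in the others. Without air replicate 1 the fall of Tek in high smoke against air still passed.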

How the results depend on the processing

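Over all alternatives, 915 of 945 values of single markers kept direction and side of the threshold, and 534 of 573 ratios did. Most of these had not passed to begin with, and leaving out a library of the group not compared cannot change a difference. These shares therefore do not measure how stable the calls are. Genes called for high smoke against air were 2343, with 1351 when only the 2 groups were fitted, 746 by the exact rank-sum test, 124 without high smoke replicates 1, 3 and 7, and 1453 to 2863 with single libraries left out, where the lowest counts came without high smoke replicate 1 (1453), 3 (1461) or 7 (1550). For high against low smoke they were 977, with 183, 0 and 29 to 1651. The counts moved by over 1.5 times without low smoke replicate 1 (316), 2 (296), 3 (550) or 4 (399) or high smoke replicate 1 (35), 3 (51), 4 (1651), 6 (1575) or 7 (29). Scaled to the same total, the split of 548 up and 429 down there was 414 and 633. For low smoke against air they were 0, with 1 without those 3 libraries and 0 to 2 with single libraries left out.

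Markers called for high smoke against air were 3, with 1 (Sox18) by the exact rank-sum test (adjusted p = 0.0566 for Tek and 0.0889 for Cldn5) and 0 without replicates 1, 3 and 7. For high against low smoke they were 1, with 0 and 0 in these alternatives and 0 to 3 with single libraries left out. With array weights Plvap passed against air (0.47, adjusted p = 0.0325 by limma). The cause was not tested in any of these.

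Reversed values of single markers lay near zero, while those of ratios reached 0.15. Kdr in high smoke against air was 0.0424 with the span trend removed and -0.0393 to 0.02191 with single libraries left out. In low smoke against air Ca4 was -0.01079 to 0.08188, and Cldn5 -0.09145 to 0.02948, and 0.01485 with array weights. Ratios to Cdh5 that reversed with single libraries left out were Gpihbp1 (-0.21 to 0.15) and Tek (-0.0484 to 0.06193) in high against low smoke, Vwf in high smoke against air (-0.03839 to 0.05007), and Kdr (-0.13 to 0.02105) and Ca4 (-0.18 to 0.006296) in low smoke against air. Without replicates 1, 3 and 7, Gpihbp1 was 0.0019 and Tek 0.13 in high against low smoke, and with Kdr as denominator Vwf was -0.08689 there. Plvap to Cdh5 passed without air replicate 3 (0.61) or high smoke replicate 4 (0.62) against air, and without high smoke replicate 4 (0.46) against low smoke. The Pecam1 denominator was not run. No paired analysis was possible because the labels give no pairing of rats across groups. Gpihbp1 had the fewest reads, 19 to 123 read equivalents per library, with a coefficient of variation inside groups of 31.4% to 49.5%.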
